A study of Mus musculus with 7 samples.

Results

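The atrophy ubiquitin ligases and FoxO factors are a set of 8 genes, chosen by name for their known roles in skeletal muscle, by a rule that uses no measured value, although earlier results of these data were known when they were chosen. They are the ligase genes *Fbxo32*, *Trim63*, *Trim54*, *Trim55* and *Fbxo30* and the transcription factor genes *Foxo1*, *Foxo3* and *Foxo4*, out of 56748 genes listed in the counts. All 8 had counts in both genotypes and were among the 9489 genes with enough counts to be tested.

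Muscle protein is broken down in large part by the ubiquitin-proteasome system, in which a ligase selects a protein, ubiquitin is attached to it, and the proteasome degrades it. *Fbxo32* encodes atrogin-1, the F-box subunit of an SCF ligase, and *Trim63* encodes MuRF1, a RING ligase of the sarcomere; both are known as genes induced in muscle wasting. FoxO proteins are transcription factors that AKT, acting downstream of insulin and IGF1, holds in the cytoplasm, and that drive *Fbxo32* and *Trim63* when they enter the nucleus.

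RNA was measured in MuSCs, the stem cells of skeletal muscle, from hind limb muscles of adult mice. The cells were sorted magnetically, by removing CD31+, CD45+ and Sca1+ cells and then retaining those with integrin α7, and, per the labels, were kept in culture in myoblast growth medium with serum and bFGF. There were 3 libraries from WT and 4 from homozygous *Jag2sm* mice, which carry in every cell a naturally occurring missense allele of *Jag2*, the gene of a NOTCH ligand, that the study describes as hypomorphic. The labels write this genotype as *Jag2*-/- and give neither a strain, a sex nor an exact age, and they do not say whether each library came from its own mouse or culture, so p-values measure the spread between these samples, which may be technical. Each library was read by nanopore sequencing of direct cDNA, in which a read is 1 cDNA molecule without amplification.

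Depth ran from 187834 counts on genes in WT replicate 1 to 1937581 in *Jag2sm* replicate 3. In WT replicate 1 the aligned reads outside genes made 45.1%, and in the remaining libraries 20.8% to 25.7%. Unaligned reads made 46% to 50.8% of *Jag2sm* replicates 1, 2 and 4 and 2.44% to 3.24% of the other 4 libraries. *Jag2* itself stood at 103 ± 19.7 CPM (CPM are counts scaled to a common library size after TMM normalization; mean ± SD, n = 3) in WT and 67.6 ± 17.1 CPM (n = 4) in *Jag2sm* MuSCs and was not called (adjusted p = 0.166, edgeR's quasi-likelihood test). Of 9 markers of MuSCs and myoblasts, 8 had counts, and *Pax7*, *Myf5*, *Myod1*, *Itga7* and *Cdh15* were among them. Their summed level was 3346 to 5839 CPM in WT and 2165 to 2633 CPM in *Jag2sm* libraries, and of the 8, *Des* alone was called, lower. *Des* was the largest part of this sum in every library, at 1807 to 4599.9 CPM in WT and 706 to 1103 CPM in *Jag2sm*. *Pax7* was higher in every *Jag2sm* library than in any WT library (log2 fold change 0.80). It was not called (adjusted p = 0.174, edgeR's quasi-likelihood test). The remaining tested markers of this list overlapped between the genotypes. The summed level of 12 markers of differentiating muscle was 21256 to 34586 CPM in WT and 899.8 to 5371 CPM in *Jag2sm* libraries, and all 11 that could be tested were called lower. In bulk RNA, fewer cells of a type and less RNA per cell cannot be told apart. Markers of immune, endothelial, Schwann and fibro-adipogenic cells each summed to at most 44.9 CPM in any library, with *Ptprc*, *Kdr*, *Dpt* and *Lum* at 0 throughout. Mural cell markers reached 686 CPM in *Jag2sm* replicate 1 and lay between 55.0 and 87.8 CPM elsewhere. In that replicate *Rgs5* made 645 CPM and *Notch3* 41.0 CPM, while *Pdgfrb*, *Myh11*, *Kcnj8* and *Abcc9* were at 0. *Abcc9* was called lower in *Jag2sm* libraries (log2 fold change -3.71, adjusted p = 0.0139, edgeR's quasi-likelihood test). Tenocyte markers summed to 115 to 128 CPM in WT and 30.1 to 76.6 CPM in *Jag2sm* libraries. Nearly all of this was *Scx*, with 115 to 120.2 CPM in WT and 29.1 to 73.4 CPM in *Jag2sm* libraries. *Tnmd*, *Mkx*, *Thbs4* and *Fmod* each had at most 11.4 CPM in any library.

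The ligases did not move together. The MuRF genes *Trim63* and *Trim55* fell in *Jag2sm* MuSCs, by 10.4-fold and 2.14-fold, while *Fbxo32* had a higher mean than in WT and did not pass the test. No FoxO member passed the test in either direction. A gene is called here at a Benjamini-Hochberg adjusted p under 0.05 over all tested genes. Of the 8 members 2 were called lower, where 4.84% of all tested genes were, and 0 were called higher, where 1.42% of all tested genes were; 6.26% were called in either direction. At an unadjusted p under 0.05, 3 members were lower and 1 was higher, and DESeq2 and limma-voom each also called 2 lower and 0 higher. The median log2 fold change was -0.48 over the members and 0.05 over all genes tested.

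**Figure D1:**
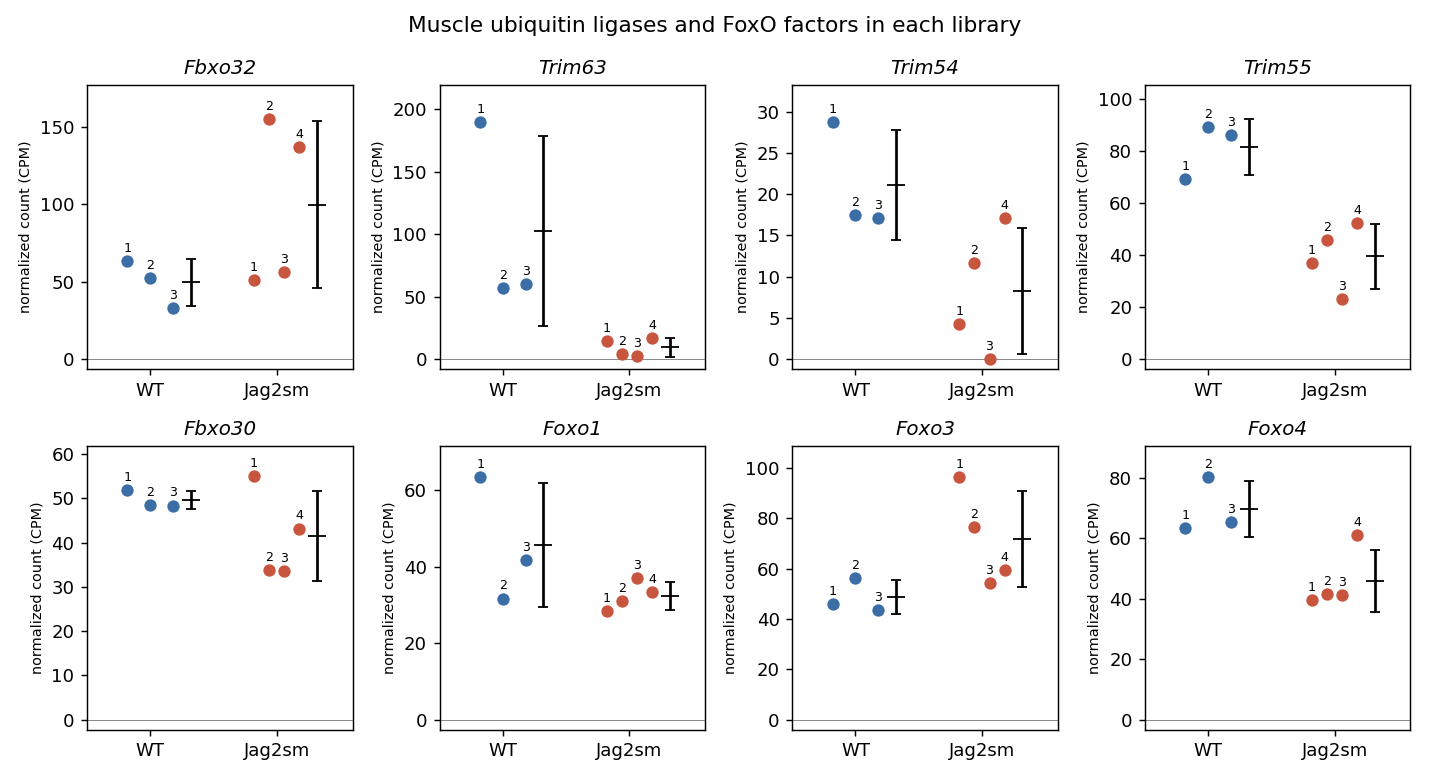
Normalized count (CPM, linear axis from 0) of the 8 members, 1 panel per gene, where points are libraries with their replicate number, blue for the 3 WT and red for the 4 *Jag2sm* libraries, and the bar beside each group is the mean with its SD. *Trim63*, *Trim55* and *Foxo4* have all *Jag2sm* points below all WT points, *Fbxo32* has 2 high *Jag2sm* points, and the remaining members overlap.

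*Trim63* (ENSMUSG00000028834.14, chr4:134042393-134056948, plus strand, GRCm39) showed the largest difference of the 8. WT replicates 1, 2 and 3 held 190.2, 56.9 and 59.7 CPM, from 33, 88 and 63 counts. *Jag2sm* replicates 1 to 4 held 14.1, 4.15, 1.97 and 17.1 CPM, from 10, 6, 4 and 21 counts. Every *Jag2sm* library lay below every WT library, a pattern found in 12.2% of all tested genes, and the shallow WT replicate 1 stood above the other WT libraries. The log2 fold change was -3.38 (SE 0.648, 95% interval -4.81 to -1.95, adjusted p = 0.0131), and the exact two-sided permutation test gave p = 0.0286, the smallest that 35 splits of 7 libraries allow. The labels give each library a batch number equal to its replicate number, and within batches 1, 2 and 3 the *Jag2sm* library was lower by -3.60, -3.32 and -4.06 on the log2 scale. Without WT replicate 1 the log2 fold change was -2.82 (adjusted p = 0.0250). Without *Jag2sm* replicate 2 the call was lost (-3.12, adjusted p = 0.0514), and without *Jag2sm* replicate 4 the fall was larger (-4.02), as it was with the batch number as a block, in which *Jag2sm* replicate 4 has no partner (-4.06).

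The order of libraries for *Trim63* was compared with that of *Myog*, *Mef2c* and the summed differentiation markers. Within *Jag2sm* libraries *Trim63*, *Myog*, *Mef2c* and the 12 summed differentiation markers all ran from replicate 4 through 1 and 2 down to 3. Not every single marker had this order, as *Acta1* and *Mymx* were highest in replicate 1, and *Ttn* and *Myh8* were higher in replicate 2 than in replicate 1. *Myog*, a transcription factor of myocyte differentiation, had 711, 387, 110.4 and 906 CPM in *Jag2sm* replicates 1 to 4 and 2222 to 2894 CPM in WT, and it fell (log2 fold change -2.33, adjusted p = 0.0300), a call that was lost when any of 5 libraries, all but *Jag2sm* replicates 3 and 4, was left out. Set against these markers, *Trim63* no longer separated the genotypes: it had 5.50, 2.68 and 2.50 CPM per 1000 CPM of the summed markers in WT and 3.23, 1.62, 2.19 and 3.19 in *Jag2sm* libraries. Per 1000 CPM of *Myog* alone it was still lower in every *Jag2sm* library, at 10.7 to 19.9 against 21.0 to 65.7. The part of the differentiation markers in the fall of *Trim63* was not tested.

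*Trim55* (ENSMUSG00000060913.7, chr3:19698571-19746771, plus strand) encodes MuRF2, a microtubule- and sarcomere-associated relative of MuRF1. It had 69.2, 89.2 and 86.3 CPM in WT replicates 1, 2 and 3 and 36.8, 45.6, 23.2 and 52.2 CPM in *Jag2sm* replicates 1 to 4. All *Jag2sm* libraries were below all WT libraries, and the means were 81.6 ± 10.8 (SD, n = 3) and 39.4 ± 12.5 CPM (SD, n = 4). The log2 fold change was -1.10 (SE 0.277, 95% interval -1.71 to -0.49, adjusted p = 0.0419), with -0.88, -0.94 and -1.82 within batches 1, 2 and 3. This call lay close to the threshold. It was lost without WT replicate 2 or 3 (adjusted p = 0.170 and 0.151) or *Jag2sm* replicate 1 or 2 (0.0885 and 0.0857), and with libraries scaled by size alone (-0.94, adjusted p = 0.0638), while the direction was kept in each case. After all libraries were thinned to the depth of the smallest, the fall was larger (-1.90, adjusted p = 0.0123). Set against the differentiation markers, *Trim55* was higher in *Jag2sm* libraries: it had 2.00 to 4.20 CPM per 1000 CPM of the summed markers in WT and 8.40 to 25.7 in *Jag2sm* libraries, without overlap. The summed markers themselves were lower in every *Jag2sm* library, so a gene of equal level in both genotypes would also be higher relative to them. *Fbxo32*, *Fbxo30*, *Foxo1*, *Foxo3* and *Foxo4* were likewise higher relative to the markers in every *Jag2sm* library. The share of all genes that separate in this way was not counted, so this is not particular to the members.

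*Trim54* (ENSMUSG00000062077.15, chr5:31273911-31298846, plus strand), which encodes MuRF3, was the least counted member. WT replicates 1, 2 and 3 held 28.8, 17.5 and 17.1 CPM. *Jag2sm* replicates 1 to 4 held 4.24, 11.7, 0 and 17.1 CPM, and the count of 0 in replicate 3 allows up to 1.48 CPM, for counting error only. Replicate 4 reached the lowest WT library, so the groups overlapped. The log2 fold change of -1.21 (SE 0.790, 95% interval -2.96 to 0.53, adjusted p = 0.438) did not pass the test, and its interval holds both 0 and falls larger than that of *Trim55*. The value was -1.87 without *Jag2sm* replicate 4, -2.77 with limma-voom and -2.09 with the batch number as a block, in which *Jag2sm* replicate 4 has no partner, and it was called in none of these (adjusted p = 0.261, 0.180 and 0.206). *Trim54* shares exon sequence with *Gm15469*, *Ucn* and *Mpv17* on the opposite strand, and the strand setting of the counting is not given in the sources used here, so its counts are uncertain. The 3 MuRF genes together made 288, 164 and 163 CPM in WT and 55.1, 61.5, 25.1 and 86.4 CPM in *Jag2sm* libraries.

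*Fbxo32* (ENSMUSG00000022358.8, chr15:58039275-58078741, minus strand) went the other way in its mean. It had 63.4, 52.4 and 33.2 CPM in WT replicates 1, 2 and 3, and 50.9, 155, 56.2 and 137 CPM in *Jag2sm* replicates 1 to 4. Replicates 2 and 4 were high, and replicates 1 and 3 lay within the WT range. The log2 fold change was 1.11 (SE 0.440, 95% interval 0.14 to 2.08, unadjusted p = 0.0292 and adjusted p = 0.188, edgeR's quasi-likelihood test), and the exact permutation test gave p = 0.257. Within batches 1, 2 and 3 the difference was -0.31, 1.54 and 0.73, so its sign was not shared. *Fbxo32* was called higher under 1 alternative, the fit without a filter on low counts (log2 fold change 1.13, adjusted p = 0.00347). The fold change hardly moved there, while the SE was 0.292 in place of 0.440. That fit called 1248 of 25189 tested genes, against 594 of 9489 in the main fit. Its exons overlap those of *Gm15943* on the opposite strand.

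Counts of the MuRF genes per *Fbxo32* count were lower in every *Jag2sm* library than in every WT library. *Trim63*, *Trim55* and *Foxo4* also separated the genotypes on their own, and *Fbxo32* had the higher mean in *Jag2sm* libraries. For *Trim63*, *Trim55* and *Foxo4* the lower ratios are therefore not a separate result. *Trim54* overlapped between the genotypes on its own. In *Jag2sm* replicate 4 it had 17.1 CPM, as in WT replicate 3, beside 137 CPM of *Fbxo32*, so its lower ratio there is no fall of *Trim54* itself. For each *Fbxo32* count there were 3.00, 1.09 and 1.80 *Trim63* counts in WT replicates 1, 2 and 3. In *Jag2sm* replicates 1 to 4 there were 0.278, 0.0267, 0.0351 and 0.125. The same ratio was 1.09 to 2.60 in WT and 0.293 to 0.722 in *Jag2sm* libraries for *Trim55*, and 0.333 to 0.514 and 0 to 0.125 for *Trim54*. *Foxo4* also had fewer counts per *Fbxo32* count in every *Jag2sm* library, at 0.267 to 0.778 against 1.00 to 1.97, whereas *Fbxo30*, *Foxo1* and *Foxo3* overlapped. These ratios within a library do not depend on how libraries are scaled. They were formed after the values of the members were seen and are given without a test. How many of all genes separate in the same way when set against *Fbxo32* was not counted.

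**Figure D2:**
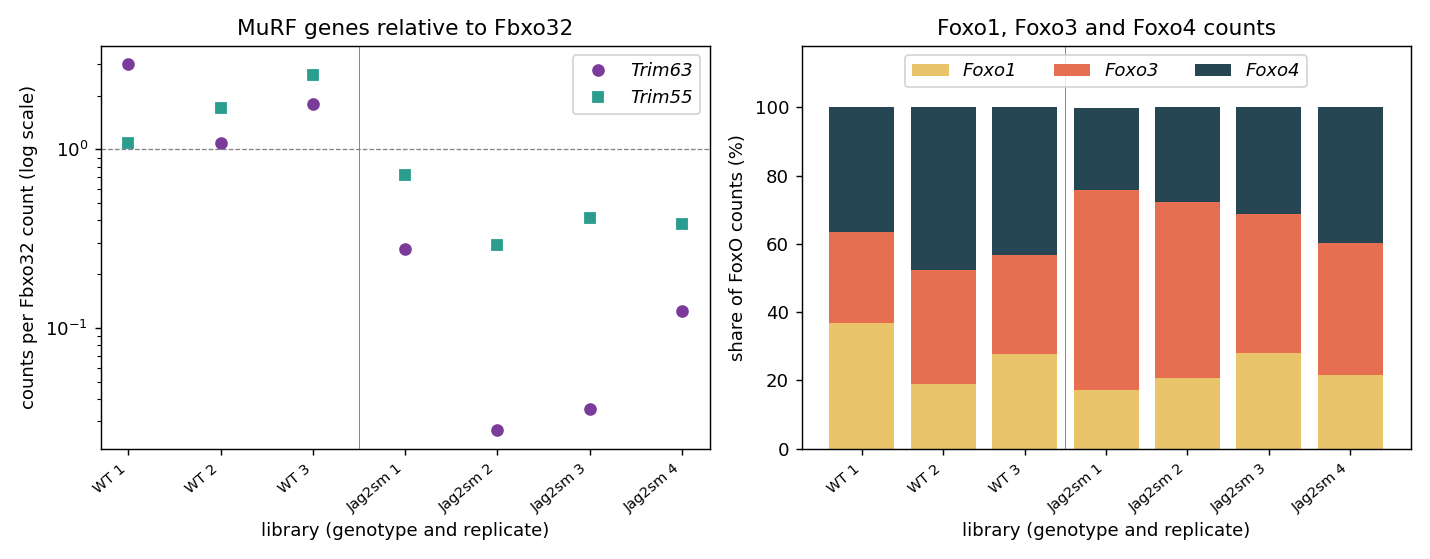
Left, counts of *Trim63* (circles) and *Trim55* (squares) for each *Fbxo32* count, per library on a log axis, with a dashed line at a ratio of 1 and every *Jag2sm* library below it. Right, stacked bars of the share of *Foxo1*, *Foxo3* and *Foxo4* in the counts of all 3, in percent per library, in which *Foxo3* makes 26.7% to 33.5% in WT and 38.6% to 58.6% in *Jag2sm* libraries.

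*Fbxo30* (ENSMUSG00000047648.14, chr10:11156770-11173806, plus strand) encodes MUSA1, an F-box ligase subunit known to be restrained by BMP signaling in muscle. It had 51.9, 48.5 and 48.4 CPM in WT replicates 1, 2 and 3 and 55.1, 33.9, 33.5 and 43.2 CPM in *Jag2sm* replicates 1 to 4. The groups overlapped, and the log2 fold change of -0.27 (SE 0.243, 95% interval -0.81 to 0.27, adjusted p = 0.593) did not pass the test. The interval leaves room for a fall of up to 0.81 log2 units. Its exons overlap those of *4930432B10Rik* on the opposite strand.

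The promoters of the ligases are shown because FoxO factors and the myogenic E-box factors are known to act on such sequences. Those of *Trim63* and *Trim55*, which were called lower, and of *Fbxo32*, which was not called, are printed. Each line holds the 250 bases before the start of the canonical transcript in GRCm39, 5′ to 3′ on the strand of the gene. Capitals mark the FoxO letters GTAAACA, here read as TGTTTAC on the strand of the gene, and the E-box form CAGCTG, which is the same on both strands. E-boxes have the general form CANNTG, and only CAGCTG was searched.
*Trim63*, chr4:134042143-134042392, plus strand: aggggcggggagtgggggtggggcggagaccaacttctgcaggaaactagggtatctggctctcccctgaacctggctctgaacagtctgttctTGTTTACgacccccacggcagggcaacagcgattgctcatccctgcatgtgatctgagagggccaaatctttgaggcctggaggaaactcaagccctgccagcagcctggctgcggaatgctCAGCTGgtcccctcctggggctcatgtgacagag
*Trim55*, chr3:19698321-19698570, plus strand: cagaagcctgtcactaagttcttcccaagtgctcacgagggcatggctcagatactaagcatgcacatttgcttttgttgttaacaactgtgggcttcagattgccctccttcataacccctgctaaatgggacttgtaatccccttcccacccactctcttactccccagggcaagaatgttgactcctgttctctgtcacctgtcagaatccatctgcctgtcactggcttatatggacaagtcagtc
*Fbxo32*, chr15:58078742-58078991, minus strand: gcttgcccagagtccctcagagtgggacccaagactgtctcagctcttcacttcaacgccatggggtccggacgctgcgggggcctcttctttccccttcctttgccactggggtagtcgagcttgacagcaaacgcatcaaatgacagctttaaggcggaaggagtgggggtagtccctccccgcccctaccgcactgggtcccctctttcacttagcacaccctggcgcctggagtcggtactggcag
*Trim63* was the only member whose window held the FoxO letters, which run from base 156 to base 150 before the start. It also held the E-box letters, from base 34 to base 29, as did *Trim54*, from base 68 to base 63. Neither set of letters was in the windows of *Trim55*, *Fbxo32*, *Fbxo30*, *Foxo1*, *Foxo3* or *Foxo4*, and no member's window held the MEF2 consensus. Other E-box forms, such as CACCTG in the *Trim55* and CAAATG in the *Fbxo32* window, were not searched. Among 21630 promoters of protein-coding genes of the same length, 2.72% held the FoxO letters, 11.9% the E-box letters and 2.8% the MEF2 consensus, each searched on both strands. A match is a stretch of letters, and whether any factor was bound there was not measured.

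Among the FoxO factors, *Foxo3* and *Foxo4* leaned in opposite directions, and neither passed the test. *Foxo3* (ENSMUSG00000048756.12, chr10:42057837-42154007, minus strand), known as a driver of *Fbxo32* and of autophagy genes in muscle, had 46.1, 56.2 and 43.6 CPM in WT replicates 1, 2 and 3. It had 96.2, 76.7, 54.2 and 59.5 CPM in *Jag2sm* replicates 1 to 4, of which only replicate 3 lay within the WT range. Its log2 fold change was 0.51 (SE 0.254, 95% interval -0.05 to 1.07, adjusted p = 0.300), with 1.03, 0.44 and 0.30 within batches 1, 2 and 3. When all libraries were thinned to the depth of the smallest, the value was -0.05 (adjusted p = 0.955).

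*Foxo4* (ENSMUSG00000042903.9, chrX:100298073-100304479, plus strand) had 63.4, 80.2 and 65.4 CPM in WT replicates 1, 2 and 3 and 39.6, 41.5, 41.4 and 61.1 CPM in *Jag2sm* replicates 1 to 4. Every *Jag2sm* library was below every WT library, although replicate 4 stood apart from the other 3 and next to the WT range. The log2 fold change was -0.63 (SE 0.227, 95% interval -1.13 to -0.13, unadjusted p = 0.0187 and adjusted p = 0.145, edgeR's quasi-likelihood test). Within batches 1, 2 and 3 it was -0.66, -0.92 and -0.64, and no alternative fit called it.

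*Foxo1* (ENSMUSG00000044167.7, chr3:52175757-52260642, plus strand), which is known to act in myoblast fusion as well as in wasting, had 63.4, 31.7 and 41.7 CPM in WT replicates 1, 2 and 3. It had 28.3, 31.1, 37.0 and 33.4 CPM in *Jag2sm* replicates 1 to 4. The groups overlapped, WT replicate 1 was the highest library with 11 counts, and the log2 fold change was -0.33 (SE 0.266, 95% interval -0.91 to 0.26, adjusted p = 0.657). The exons of *Foxo1* and *Foxo3* overlap those of *Gm20402* and *Gm66047* on the opposite strand, and those of *Foxo4* overlap no other gene.

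The 3 factors together made 173, 168 and 151 CPM in WT replicates 1, 2 and 3 and 164, 149, 133 and 154 CPM in *Jag2sm* replicates 1 to 4, so their sum overlapped between the genotypes. *Foxo3* took 26.7% (exact 95% interval 12.3 to 45.9), 33.5% (27.8 to 39.6) and 28.9% (22 to 36.6) of the 3-gene counts in WT replicates 1, 2 and 3. It took 58.6% (49.1 to 67.7), 51.4% (44.5 to 58.2), 40.9% (35 to 47.0) and 38.6% (31.6 to 46) in *Jag2sm* replicates 1 to 4. All 4 shares were above all WT shares, but the counting intervals of *Jag2sm* replicates 3 and 4 overlapped those of WT libraries. *Foxo4* took 36.7% to 47.7% in WT and 24.1% to 39.7% in *Jag2sm* libraries, and *Foxo1* took 18.8% to 36.7% and 17.2% to 27.9%. These shares were formed after the values were seen and carry no test.

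**Figure D3:**
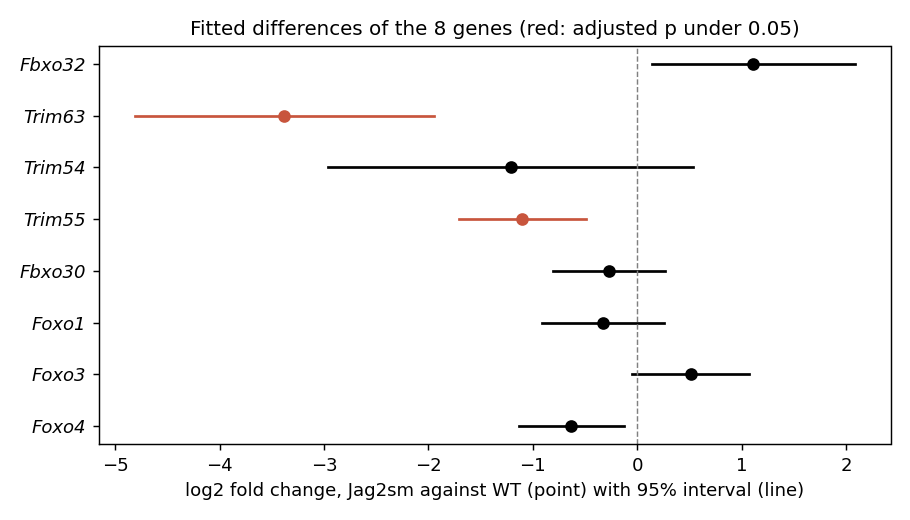
log2 fold change (*Jag2sm* minus WT) of each member from edgeR as a point with its 95% interval as a line, red where the adjusted p was under 0.05. *Trim63* and *Trim55* are red, and the intervals of *Fbxo32* and *Foxo4* also leave out 0, but their adjusted p-values of 0.188 and 0.145 did not pass the threshold.

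*Foxo6* (ENSMUSG00000052135.9, chr4:120124276-120147792, minus strand), the remaining FoxO gene of the mouse and not a member of the set, did fall. It had 28.8, 17.5 and 19.0 CPM in WT and 7.07, 2.07, 1.48 and 5.71 CPM in *Jag2sm* libraries, with no overlap (log2 fold change -2.45, SE 0.507, adjusted p = 0.0180). It rests on few reads, 52 over the WT and 18 over the *Jag2sm* libraries, and the call was lost without WT replicate 2 or 3 (adjusted p = 0.0708 and 0.0779) or *Jag2sm* replicate 2 (0.0631).

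Genes that act on FoxO proteins, listed with *Foxo6*, numbered 27, and all were tested. In this list 4 were called lower and 0 higher, where 4.84% and 1.42% of all tested genes were. The median log2 fold change was -0.11. *Prkaa2*, a catalytic subunit of AMPK that is abundant in muscle, fell (log2 fold change -3.20, SE 0.501, adjusted p = 0.00615). *Akt2*, a kinase that excludes FoxO proteins from the nucleus, fell from 262 ± 143 (SD, n = 3) to 80.6 ± 9.07 CPM (SD, n = 4; log2 fold change -1.62, adjusted p = 0.0131), and the call was lost without *Jag2sm* replicate 2 (adjusted p = 0.0524). *Akt1* stood at 179 ± 10.3 CPM in WT (SD, n = 3) and 165 ± 28.5 CPM in *Jag2sm* MuSCs (SD, n = 4) and did not pass the test (adjusted p = 0.800). *Mapk8*, which encodes the kinase JNK1, fell with a log2 fold change of -0.97 (adjusted p = 0.0470), but not with the batch number as a block (-1.08, adjusted p = 0.0969) nor by DESeq2 (-0.93, adjusted p = 0.0731). Its call was also lost without any one library except WT replicate 1.

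Of 33 genes described as FoxO targets in muscle or other cells, 30 were tested. Here 1 was called higher and 4 lower, where 1.42% and 4.84% of all tested genes were. The median log2 fold change was -0.09. *Gadd45a*, a stress-response gene that is induced in denervated muscle, fell from 294 to 373 CPM in WT to 93.3 to 112 CPM in *Jag2sm* libraries (log2 fold change -1.70, SE 0.194, adjusted p = 0.00224). *Mstn*, the secreted inhibitor of muscle growth myostatin, fell (log2 fold change -3.37, SE 0.439, adjusted p = 0.00311), and so did *Map1lc3a*, an LC3 protein of autophagosomes (-1.39, SE 0.240, adjusted p = 0.00908). These 3 calls were kept without each library in turn, and without *Jag2sm* replicate 4 the value of *Mstn* was -3.97. *Cdkn1a*, the cell cycle inhibitor p21, fell by 1.09 on the log2 scale (adjusted p = 0.0369), but not with the batch number as a block (-1.21, adjusted p = 0.0676) nor without any one library except WT replicate 1.

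The target that rose was *Txnip*, a thioredoxin-binding protein that restrains glucose uptake, with 5.76, 3.88 and 1.90 CPM in WT and 29.7, 19.3, 9.85 and 11.4 CPM in *Jag2sm* libraries. Its log2 fold change was 2.32 (SE 0.583, adjusted p = 0.0415) from 9 WT counts in all, and the call was lost with limma-voom (adjusted p = 0.108) and without any WT library or *Jag2sm* replicate 1 or 2. *Pdk4* and *Bnip3*, often used as FoxO readouts in muscle, did not pass the test, with log2 fold changes of -1.18 (adjusted p = 0.289) and 0.23 (0.875). DESeq2 called 1 target higher and 5 lower, and limma-voom 0 higher and 4 lower. *Gadd45a*, *Cdkn1a* and *Txnip* overlap transcripts on the opposite strand.

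Among 32 other ubiquitin ligases and adaptors described in muscle, 28 were tested, and the median log2 fold change was -0.16. Of the 28, 5 were called lower and 0 higher, where 4.84% and 1.42% of all tested genes were. The 5 are largely products of differentiated muscle. *Klhl40* and *Klhl41*, Kelch adaptors that hold thin filament proteins, fell from 81.3 ± 24.5 to 13.0 ± 6.54 CPM (log2 fold change -2.64, adjusted p = 0.00539) and from 308 ± 153 to 36.6 ± 24.7 CPM (-3.05, adjusted p = 0.0106; SD, n = 3 and 4). *Trim72*, a membrane repair protein, *Asb2*, a SOCS-box adaptor for filamins, and *Fbxo40*, an F-box protein for IRS1, fell with log2 fold changes of -3.30, -2.68 and -4.34 (adjusted p = 0.0192, 0.0302 and 0.0316). *Klhl40* and *Klhl41* remained called without each library in turn. *Trim72* lost its call without *Jag2sm* replicate 1 or 2 (adjusted p = 0.0501 and 0.0524), *Asb2* without any WT library or *Jag2sm* replicate 1 or 2 (0.0611 to 0.128), and *Fbxo40* without *Jag2sm* replicate 2, 3 or 4 (0.0660 to 0.0946) and with limma-voom (0.0572). Without WT replicate 1, the log2 fold changes of *Trim72* and *Fbxo40* were -2.52 and -3.09, and without WT replicate 2 they were -3.96 and -5.05. Without WT replicate 3 or *Jag2sm* replicate 3 that of *Fbxo40* was -5.10 or -3.74, and without *Jag2sm* replicate 4 that of *Asb2* was -3.67. The summed differentiation markers given above were also lower in every *Jag2sm* library. Within *Jag2sm* libraries *Klhl40*, *Klhl41* and *Asb2* had the order of the summed markers, whereas *Trim72* was highest in replicate 2 and *Fbxo40* in replicate 1. The part of the markers in the falls was not tested.

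Among ligases of broader expression, the means of some were close in both genotypes. *Nedd4*, a HECT ligase, had 767 ± 81.8 CPM in WT (SD, n = 3) and 782 ± 77.4 CPM in *Jag2sm* MuSCs (SD, n = 4; adjusted p = 0.979), and *Traf6* had 19.4 ± 3.47 and 15.4 ± 4.15 CPM (adjusted p = 0.903). The highest log2 fold changes in the list were those of *Trim32*, a RING ligase of muscle stem cells and sarcomeres, with 17.3, 22.6 and 23.7 CPM in WT and 42.4, 40.1, 35 and 38.3 CPM in *Jag2sm* libraries (log2 fold change 0.79, SE 0.234, adjusted p = 0.0757), and of *Mdm2*, the ligase of p53 (0.73, adjusted p = 0.145). Neither passed the test. *Nedd4*, *Traf6*, *Trim32*, *Mdm2*, *Akt1*, *Pdk4* and *Bnip3* were chosen after their values were seen.

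No gene of the machinery that the ligases share was called, where 6.26% of all tested genes were called in either direction. At that share, few calls would be found in lists of this size. Of 22 genes of ubiquitin, its E1 and E2 enzymes and the SCF core, 21 were tested and 0 were called by edgeR, DESeq2 or limma-voom, with 1 higher and 0 lower at an unadjusted p under 0.05 in edgeR and log2 fold changes from -0.43 to 0.55. Of 32 subunits of the 26S proteasome, 30 were tested and 0 were called by any of the 3 tools, with 0 higher and 3 lower at an unadjusted p under 0.05 and log2 fold changes from -0.67 to 0.34. The medians were -0.04 and -0.01, beside 0.05 over all genes tested. *Skp1*, the subunit that links F-box proteins such as atrogin-1 to the cullin *Cul1*, had 301 ± 48.2 CPM in WT (SD, n = 3) and 297 ± 30.4 CPM in *Jag2sm* MuSCs (SD, n = 4). *Skp1* too was picked after its values were seen.

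Described substrates and partners of the ligases numbered 23, of which 20 were tested, with a median log2 fold change of -2.31. Of the 20, 11 were called lower and 0 higher, where 4.84% and 1.42% of all tested genes were. Most of the 11 are sarcomere genes, and several are also among the differentiation markers, so this count is not separate from theirs. *Myh3*, the embryonic myosin heavy chain, fell from 2261 ± 322 (SD, n = 3) to 245 ± 138 CPM (SD, n = 4; log2 fold change -3.21, adjusted p = 0.00539). *Myh8*, *Tnnt3*, *Tnni1*, *Tnni2* and *Tcap*, the last a cap of titin that MuRF1 is known to bind, had log2 fold changes between -3.98 and -3.30. That of *Tcap* was -3.05 without WT replicate 1, and that of *Myh8* went from -3.88 to -4.70 without *Jag2sm* replicate 4. *Myod1*, a described target of atrogin-1, was not called.

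**Figure D4:**
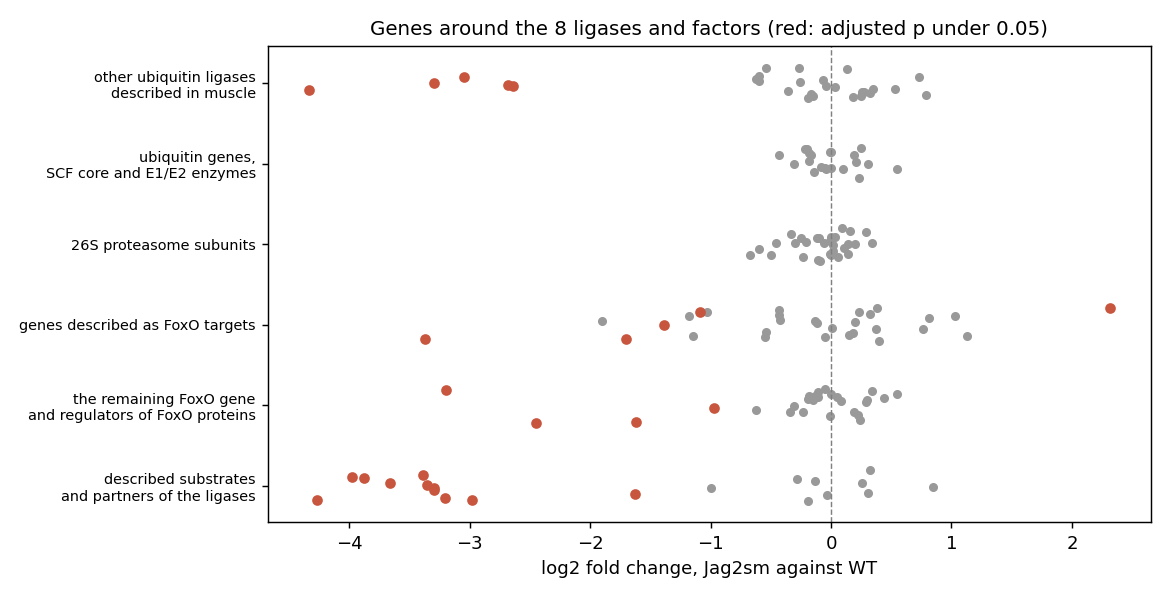
log2 fold change (*Jag2sm* minus WT) of every tested gene in the 6 lists around the members, 1 row per list, spread vertically for legibility, with red points for genes at an adjusted p under 0.05. The proteasome and ubiquitin lists lie between -0.67 and 0.55, and the substrates and partners have their median at -2.31.

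For each member the genes with the most similar pattern were sought by Pearson's r of log2 CPM over the 7 libraries, which the members share with one another, so that r is a description of these libraries. *Trim63* was nearest to *Cdkn1a*, *Serpinb1a* and *Rxrg* (r = 0.998, 0.997 and 0.996), and *Trim55* to *Igf2*, *Ilkap* and *Actc1* (0.982, 0.979 and 0.978). *Fbxo32* was nearest to *Dhx40*, *Gbe1* and *Slc7a11* (0.992, 0.990 and 0.986). *Trim54* was nearest to *Stam*, *Ints9* and *Psmc6* (0.976, 0.968 and 0.967), and *Fbxo30* to *Usp3*, *Ccser2* and *Bpgm* (0.979, 0.966 and 0.939). *Foxo1* was nearest to *Maz*, *Camsap1* and *Arnt* (0.988, 0.984 and 0.982), *Foxo3* to *Nfkbiz*, *Tmem127* and *P4hb* (0.965, 0.962 and 0.960), and *Foxo4* to *Cnnm3*, *Pex19* and *Vash2* (0.968, 0.968 and 0.965). The members themselves were left out of the genes searched. No 2 members shared a gene among their nearest 3, which says little with 9489 tested genes to draw from.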

How the data were processed

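RNA of MuSCs was measured in 3 WT and 4 homozygous *Jag2sm* libraries of nanopore direct cDNA. The authors called bases with dorado, aligned reads to GRCm39 with minimap2 2.17 and deposited raw counts per gene from HTSeq, whose version, annotation release and strand setting are not given in the sources used here. Each file also holds 5 summary counts (45.0% to 75.2% of the reads), which stayed out of library sizes and tests. The authors' DESeq2 table (mean normalized count, log2 fold change, SE, test statistic, p and adjusted p) was not used. Its values came from R 4.3.0 per the labels.

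Counts were filtered by filterByExpr (minimum count 10, minimum total 15), normalized by TMM and tested with edgeR 4.0.16 (glmQLFit, glmQLFTest, no covariate) in R 4.3.3. The SE is the log2 fold change over the square root of F. DESeq2 1.42.0 and limma 3.58.1 served as alternatives, beside other scalings and filters, a robust fit, thinned counts, the block and each library left out. Share intervals are exact binomial at 95% (SciPy 1.17.1) and cover counting error only. Counts as low as those of WT replicate 1, where 3 counts make 17.3 CPM, limit precision. Gene locations, exon overlaps and promoters are from GENCODE M39 (GRCm39), in which 56017 of 56748 identifiers were found.

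The labels' batch numbers pair replicates 1 to 3 across genotypes, without saying what the batch was. Deviations of paired libraries correlated at 0.0740, 0.0144 and 0.0539 across genes, which are not independent. The members and lists were chosen with earlier results of these data known. Named by rule are all members, up to 6 called genes per list by adjusted p, the 3 genes nearest each member, *Foxo6*, *Jag2*, *Myog* and *Mef2c*. *Nedd4*, *Traf6*, *Trim32*, *Mdm2*, *Akt1*, *Pdk4*, *Bnip3*, *Skp1* and *Myod1*, with the single markers named, lie outside that rule.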

Additional observations from a re-analysis of the deposited data

Results flagged for a closer look

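*Foxo4* in the *Jag2sm* group had 1 library apart from the rest. Replicates 1, 2 and 3 held 39.6, 41.5 and 41.4 CPM and replicate 4 held 61.1, so that its gap to the nearest library made up 0.895 of the range of the group on the log2 CPM scale, above Dixon's 95% critical value for 4 samples. About 1 in 20 groups passes that limit by chance, and 8 members were examined. Replicate 4 also had the most *Trim63*, *Trim54* and *Trim55* and the highest summed differentiation markers of the *Jag2sm* libraries.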

How the results depend on the processing

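Relative to the 2 members called lower, 1 was called with library size alone, with at least 10 counts required in every library and after thinning, where *Trim63* could not be tested under the last 2, and 0 to 2 were called when libraries were left out. The count of members called higher was 1 without a filter and 0 otherwise, also over all left-out libraries. Of the other ligases, 2 were called with 10 counts in every library, 1 after thinning and 2 to 4 with libraries left out, against 5. *Trim72*, *Asb2* and *Fbxo40* had fewer than 10 counts in some library, so they could not be tested where 10 were required. Of the FoxO targets, 8 were called without a filter, 2 with 10 counts in every library, 3 after thinning and 3 to 4 with libraries left out, against 5. Of *Foxo6* and the FoxO regulators, 1 was called with 10 counts in every library, 2 after thinning and 1 to 4 with libraries left out, against 4. The partners gave 9 to 12 against 11, and the ubiquitin and proteasome lists gave 0 throughout. *Foxo3* changed sign after thinning, to -0.05; the cause was not tested. The replicate block took away the calls of *Cdkn1a* and *Mapk8* and no other call among the members and the called genes named from the lists. With it, 2 members were called lower and 10 partners were called, against 11. The calls of the single markers *Des* and *Abcc9* were not followed across settings. Without *Jag2sm* replicate 2, 0 members were called lower; without WT replicate 2, WT replicate 3 or *Jag2sm* replicate 1, 1 was.

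Over all genes, 594 of 9489 tested were called (135 higher, 459 lower), against 625 of 9489 with library size alone (241 and 384). Other filters changed the number tested. There 1248 of 25189 were called without a filter, 274 of 2981 with 10 counts in every library and 273 of 3545 after thinning. Without *Jag2sm* replicate 2, WT replicate 2 and WT replicate 3, 251 of 9155, 343 of 9840 and 341 of 10026 were called. The median log2 fold change of all genes moved from 0.05 to 0.21 with library size alone, and it was -0.18 over the 25181 genes of DESeq2. Depth limits the values of *Trim54* and *Trim63*, each with 41 counts over the *Jag2sm* libraries, of *Foxo6* with 18 and *Fbxo40* with 7, and of every gene in WT replicate 1.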
